A study of Homo sapiens with 12 samples.

Results

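JUN overexpression was examined while a hyperactive form of the transcriptional coactivator YAP was induced. The comparison takes 6 of the 12 RNA sequencing libraries of the series, 3 from cells infected with a JUN expression vector (JUN Dox) and 3 from cells infected with an empty vector (vector Dox), chosen by the sample names. All 12 libraries come from MCF10A, an established line of non-tumorigenic human mammary epithelial cells, and all cells carried a doxycycline-inducible YAP5SA allele, which the Hippo kinases cannot inactivate. Both groups of the comparison received doxycycline (Dox) at 100 ng/ml for 16 h, and the other 6 libraries (vector EtOH and JUN EtOH, 3 each) received the solvent ethanol. JUN Dox and vector Dox were thus treated alike and differed in the vector. The cells were grown with EGF, insulin, hydrocortisone and cholera toxin in every group. The experiment was designed to ask how JUN acts on YAP target genes. The study's methods describe the 3 libraries of each group as biological replicates.

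YAP and its relative TAZ do not bind DNA themselves. They are carried to chromatin by TEAD transcription factors and, when the Hippo kinases do not hold them back, switch on genes of growth, adhesion and matrix. JUN is a subunit of AP-1, a dimer of JUN and FOS family proteins that binds the palindrome TGANTCA and is known for inducing cytokines, proteases and growth factor ligands. AP-1 and TEAD sites often lie together in enhancers of epithelial cells.

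The depth of the 6 libraries was 18594867 to 28993487 counts. Levels are given in CPM, counts scaled to the size of the library with TMM factors, and a count of 3 corresponded to 0.107 to 0.15 CPM. The targeted gene was checked first. JUN (Entrez gene 3725, GRCh37 chromosome 1, 59242517 to 59249720) had 188, 186 and 194 CPM in the vector Dox libraries and 1325, 1274 and 1146 CPM in the JUN Dox libraries. The groups did not overlap, and the log2 fold change was 2.72 (SE 0.16), with an edgeR quasi-likelihood adjusted p of 1.6e-08. The counts sum the endogenous and the vector transcript. YAP1 (chromosome 11, 101981178 to 102104155), whose counts cannot separate the endogenous gene from the YAP5SA transgene, had 216, 273 and 221 CPM in the vector Dox libraries and 365, 267 and 208 CPM in the JUN Dox libraries. These groups overlapped and the difference of 0.24 (SE 0.16) did not pass the test (edgeR adjusted p = 0.264), except in a fit without JUN Dox replicate 3, where it was 0.42 (edgeR adjusted p = 0.0374). YAP1 stood at 191, 171 and 176 CPM in the vector EtOH libraries and at 249, 243 and 210.5 CPM in the JUN EtOH libraries. Vector Dox was above vector EtOH by 0.40 (SE 0.16), which did not pass either (edgeR adjusted p = 0.0819), and JUN Dox replicate 3 was under every JUN EtOH library, so the YAP1 counts do not show the degree of induction. Within their group, JUN Dox replicates 1 and 3 deviated in opposite directions with the GC content of the exons, with a correlation across genes of -0.354 and 0.358. Counts of list members are therefore also given with a GC correction or without single libraries where they changed by more than 1.5 times.

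The label of the cells was checked against markers. All 10 genes listed for basal mammary epithelium were expressed, with a summed level of 10310.5 to 10897 CPM in vector Dox and 5989.6 to 9692 CPM in JUN Dox. The list included KRT7, EPCAM and CDH1, which are not particular to basal cells. KRT7 alone averaged 4695 CPM in vector Dox and 1507 CPM in JUN Dox, so the sums do not show a basal state. Of the 6 endothelial markers 2 passed the filter on low counts, at a summed 0.569 to 1.49 CPM over the 6 libraries, and neither was called. Of the 7 leukocyte markers the tested ones were CD68 and CD14, and the defining gene PTPRC did not pass the filter. CD68, a lysosomal protein, was higher in JUN Dox by 1.78 and CD14 was lower at -0.93 (log2, edgeR adjusted p 6.67e-08 and 0.00834). Of the 8 fibroblast markers 6 were tested and 3 were called higher (POSTN, LUM and DCN), while COL1A1 (log2 -0.13, SE 0.23) and PDGFRA (log2 -0.22, SE 0.11) did not pass. With GC correction, or without vector Dox replicate 2, PDGFRA was called lower (-0.33 and -0.30). The summed level of this list was 123 to 162 CPM in vector Dox and 144 to 151 CPM in JUN Dox. Of the luminal hormone-sensing markers 4 were tested and AREG, an EGFR ligand described below, was called higher. In these bulk samples, fewer cells of a type and less RNA per cell cannot be told apart.

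The promoters of the genes that moved furthest are shown first, because JUN binds TGANTCA and TEAD factors bind GGAATG, which reads CATTCC when taken from the other strand. Promoters were taken from RefSeq on GRCh38.p14 as windows from 250 bases before to 50 bases after the gene start, and 11491 of the 14775 tested genes had one. Both strands were searched for the AP-1 motif TGANTCA, for the CRE palindrome TGACGTCA, which does not contain the former, and for the TEAD motif in either reading. The AP-1 motif was in 4.94% of all windows, in 6.74% of those of genes called higher in JUN Dox and in 16.25% (26 of 160, Wilson 95% interval 11.3 to 22.7%) of those of genes higher by a log2 fold change of 2 or more. Among genes called lower its share was 3.85%, and 7.58% (5 of 66, interval 3.28 to 16.5%) among those lower by 2 or more. The TEAD motif was in 10.8% of all windows, 11.2% of those called higher and 10.6% of those called lower, and in 19.7% (13 of 66, interval 11.9 to 30.8%) of those lower by 2 or more. TGACGTCA was in 3.11%, 2.35% and 3.45% of all, higher and lower windows. The intervals treat genes as independent, which they are not. A match is a description of the letters and not of binding, and the windows hold no distal enhancer.

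Called genes whose groups were separate and whose mean level reached 5 CPM were ranked by fold change, and 12 were taken from each end. Of the 12 highest 10 had a promoter in the table, and the AP-1 motif was within the 250 upstream bases of 3 of them. Of the 12 lowest 6 had a promoter, and the TEAD motif was in 2 of them. Those 5 upstream stretches are given below, on the gene's strand and ending at the base before the start. Capitals mark the AP-1 motif and both readings of the TEAD motif.
SERPINB2, higher in JUN Dox, GRCh38.p14 chr18:63887455-63887704, plus strand.
SERPINB2: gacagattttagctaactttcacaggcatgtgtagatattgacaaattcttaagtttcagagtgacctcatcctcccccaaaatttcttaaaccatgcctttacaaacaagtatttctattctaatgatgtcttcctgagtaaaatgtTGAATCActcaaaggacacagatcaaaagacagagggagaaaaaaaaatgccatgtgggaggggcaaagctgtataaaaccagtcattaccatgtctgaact
POSTN, higher in JUN Dox, GRCh38.p14 chr13:37598769-37599018, minus strand.
POSTN: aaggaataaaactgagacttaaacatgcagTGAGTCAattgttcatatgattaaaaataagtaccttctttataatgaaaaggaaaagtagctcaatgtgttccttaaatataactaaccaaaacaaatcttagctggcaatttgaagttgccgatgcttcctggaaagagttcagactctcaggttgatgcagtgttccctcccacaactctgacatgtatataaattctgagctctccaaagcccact
LCN2, higher in JUN Dox, GRCh38.p14 chr9:128149203-128149452, plus strand.
LCN2: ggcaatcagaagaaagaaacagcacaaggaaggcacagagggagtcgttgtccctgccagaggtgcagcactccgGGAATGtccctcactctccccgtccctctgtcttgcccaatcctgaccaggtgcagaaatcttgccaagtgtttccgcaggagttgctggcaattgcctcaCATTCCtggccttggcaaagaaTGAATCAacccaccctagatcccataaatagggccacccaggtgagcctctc
ANKRD1, lower in JUN Dox, GRCh38.p14 chr10:90921088-90921337, minus strand.
ANKRD1: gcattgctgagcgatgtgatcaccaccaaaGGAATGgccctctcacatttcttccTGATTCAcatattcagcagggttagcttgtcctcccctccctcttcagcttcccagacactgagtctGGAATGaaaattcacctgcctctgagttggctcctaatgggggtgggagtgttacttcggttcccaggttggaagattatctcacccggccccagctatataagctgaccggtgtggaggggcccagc
THBS1, lower in JUN Dox, GRCh38.p14 chr15:39580829-39581078, plus strand.
THBS1: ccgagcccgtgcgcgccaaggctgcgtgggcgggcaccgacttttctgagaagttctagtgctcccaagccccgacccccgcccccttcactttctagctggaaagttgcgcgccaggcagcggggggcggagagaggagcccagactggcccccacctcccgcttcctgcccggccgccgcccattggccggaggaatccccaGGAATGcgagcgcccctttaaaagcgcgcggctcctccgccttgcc
In SERPINB2 the match TGAATCA begins 102 bases before the start, in POSTN TGAGTCA begins 220 bases before it, and in LCN2 TGAATCA begins 52 bases before it. LCN2 also holds the TEAD motif in both readings, 175 and 74 bases before the start. The ANKRD1 stretch holds GGAATG 220 and 128 bases before the start with TGATTCA between them, at 195. THBS1 holds GGAATG 46 bases before the start and no AP-1 motif. The promoters of CXCL2, CXCL3 and IL1B, also among the 12 highest, hold none of these letters.

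In what follows, values given with an SE, or after "higher by" and "lower at", are log2 fold changes of JUN Dox over vector Dox. With induction, JUN overexpression was accompanied by broad changes in both directions. Of 14775 genes tested 35.6% were called at an edgeR quasi-likelihood adjusted p under 0.05 (Benjamini-Hochberg), 2722 (18.4%) higher and 2545 (17.2%) lower in JUN Dox than in vector Dox. The changes were larger upward. The median called log2 fold change was 0.68 among higher and -0.54 among lower genes, 840 genes were higher and 438 lower by at least 1, and 38 were higher and 12 lower by at least 4. The median over all tested genes was 0.003. The groups did not overlap in 6405 (43.35%) of all tested genes, among them 2564 called higher and 2383 called lower. Separate groups are therefore named below only to describe single genes. For the 12 highest and 12 lowest genes they were a condition of choice. Counts of list members are to be read beside the shares called over all tested genes. A fit to the 6 libraries alone called 3439 genes, 1471 of them lower. A correction for GC content called 5856 genes and lowered the share of higher genes among them from 51.7% to 41.8%, with the median of all genes at -0.06.

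**Figure D1:**
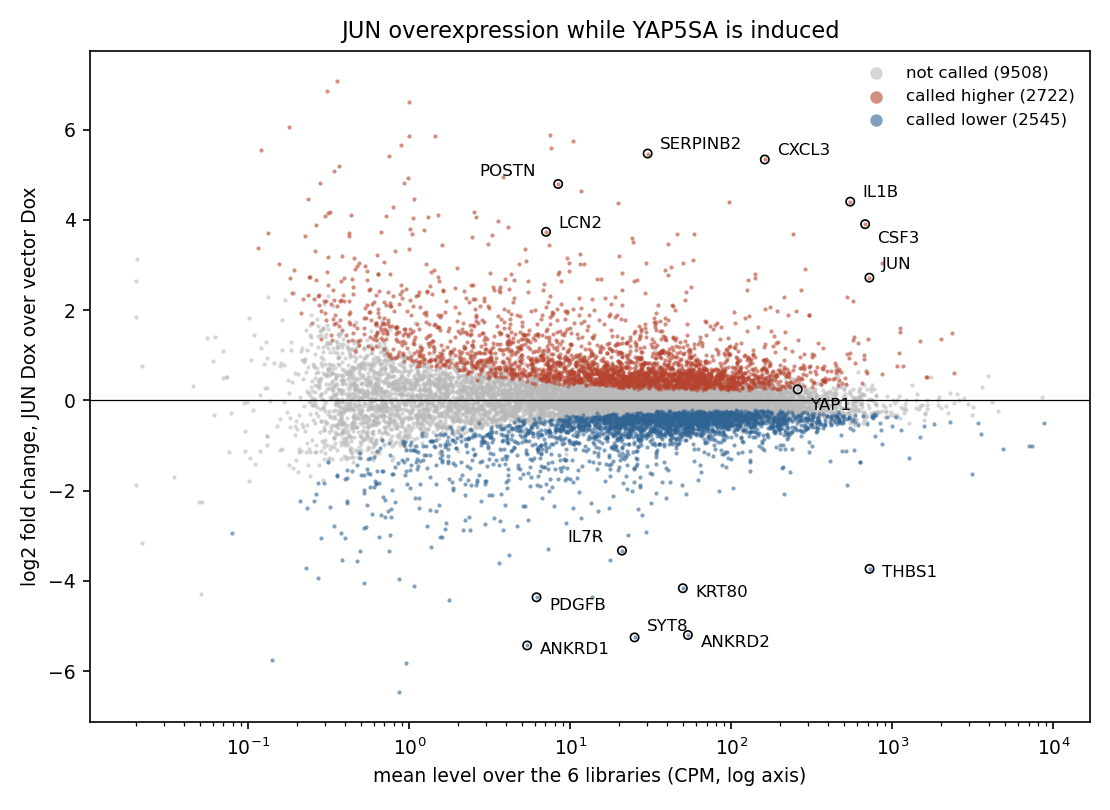
Each point is 1 of 14775 tested genes, with its mean level over the 6 libraries in CPM (log axis; 3 genes under 0.02 CPM are drawn at 0.02) and its log2 fold change, JUN Dox over vector Dox; red and blue points passed the test. IL1B, CSF3 and CXCL3 lie at the upper right and THBS1 at the lower right, while YAP1 lies in the grey band.

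Several of the genes that rose furthest encode secreted factors of inflammation. Of the 8 tested chemokines 6 were called higher and 1 lower. The median log2 fold change of these 8 was 3.37, but the filter on low counts kept CXCL5 through the JUN groups alone, and over all 16 chemokines, with DESeq2 on the unfiltered table, it was 0.20. Among the neutrophil attractants, CXCL3 had 11.7, 6.44 and 5.16 CPM in the vector Dox libraries and 419, 276 and 248 CPM in the JUN Dox libraries, a log2 fold change of 5.34 (SE 0.35). CXCL2 had 13.7, 6.49 and 5.87 CPM in the vector Dox libraries and 256, 158 and 137 CPM in the JUN Dox libraries (log2 4.40, SE 0.34). CXCL8 had 40.1, 33.4 and 30.1 CPM in the vector Dox libraries and 492, 465 and 385 CPM in the JUN Dox libraries (log2 3.69, SE 0.20). In all 3 genes every JUN Dox library lay far above every vector Dox library, and for CXCL2 and CXCL3 replicate 1 was the highest in both groups. CXCL1 was higher by 3.05 (SE 0.33), from 187 ± 88.3 CPM to 1546 ± 364 CPM (SD, n = 3). CXCL5, also a neutrophil attractant, had 0, 0.0451 and 0 CPM in the vector Dox libraries and 2.56, 2.12 and 1.24 CPM in the JUN Dox libraries. Its vector Dox libraries were under the level of 3 counts, so no fold is given. The member called lower was CXCL16, which is outside the rule for named genes and was added after its value was seen (log2 -1.11, SE 0.15). The edgeR adjusted p of CXCL1, CXCL2, CXCL3 and CXCL8 was 5.9e-09 to 5.42e-06.

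Interleukin-1 and its receptors rose together with the chemokines. Of 9 tested members of the IL-1 family 5 were called higher and 1 lower (median 1.31). IL1B, a secreted inflammatory cytokine, had 52.5, 49.8 and 45.8 CPM in the vector Dox libraries and 1075, 1032 and 1023 CPM in the JUN Dox libraries, with little spread in either group. Its log2 fold change was 4.40 (SE 0.15), and that of IL1A, which acts on the same receptor, was 2.45 (SE 0.18). The signalling receptor IL1R1 went from 6.96 ± 0.865 CPM to 44.5 ± 7.05 CPM (log2 2.68, SE 0.16), and the decoy receptor IL1R2, which takes up IL-1 without signalling, from 2.11 ± 0.149 CPM to 17.4 ± 4.48 CPM (log2 3.04, SE 0.21). Adjusted p values (edgeR) for these 4 genes were 7.7e-11 to 1.46e-07.

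Of 17 subunits and feedback genes of NF-kappaB, the factor through which IL-1 is known to act, 11 were called higher and 3 lower (median 0.67). TNFAIP3, a deubiquitinase that limits the pathway, was higher by 2.66 (SE 0.18). NFKBIZ was higher by 2.78 (SE 0.23), with the limit that it overlaps exons of NXPE3. The mitochondrial superoxide dismutase SOD2 was higher by 1.40 (SE 0.22) and the nuclear cofactor BCL3 by 1.26 (SE 0.13). None of these 4 calls was lost under any alternative run (edgeR adjusted p 6.64e-08 to 0.000168).

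Among other cytokines and their receptors, of 16 tested 6 were called higher and 1 lower (43.75% called, against 35.6% of all tested genes). CSF3, the granulocyte growth factor G-CSF, had 113, 74.8 and 65.8 CPM in the vector Dox libraries and 1386, 1278 and 1139 CPM in the JUN Dox libraries, a log2 fold change of 3.90 (SE 0.23) and one of the 6 largest rises in CPM (CPM is not adjusted for gene length). OSMR, the oncostatin M receptor, was higher by 1.11 (SE 0.16). IL24 was higher by 5.74 (SE 0.33), but its exons overlap FCMR on the other strand, with mean counts of 242.3 and 175.2, and the use of strand in counting is not stated. By this fold few of the IL24 counts came from vector Dox, so its size rests on few counts there. The member called lower was IL7R, described with the YAP-linked genes. LCN2, an iron-scavenging protein of innate defence, was higher by 3.73 (SE 0.25) at 0.989 ± 0.289 CPM in vector Dox and 13.1 ± 3.46 CPM in JUN Dox. It is one of the 12 highest genes, whose groups do not overlap by the rule of choice. S100A8, an alarmin, was higher by 2.51 (SE 0.44). By the edgeR test the adjusted p of CSF3, OSMR, LCN2 and S100A8 was 1.47e-08 to 0.000975.

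**Figure D2:**
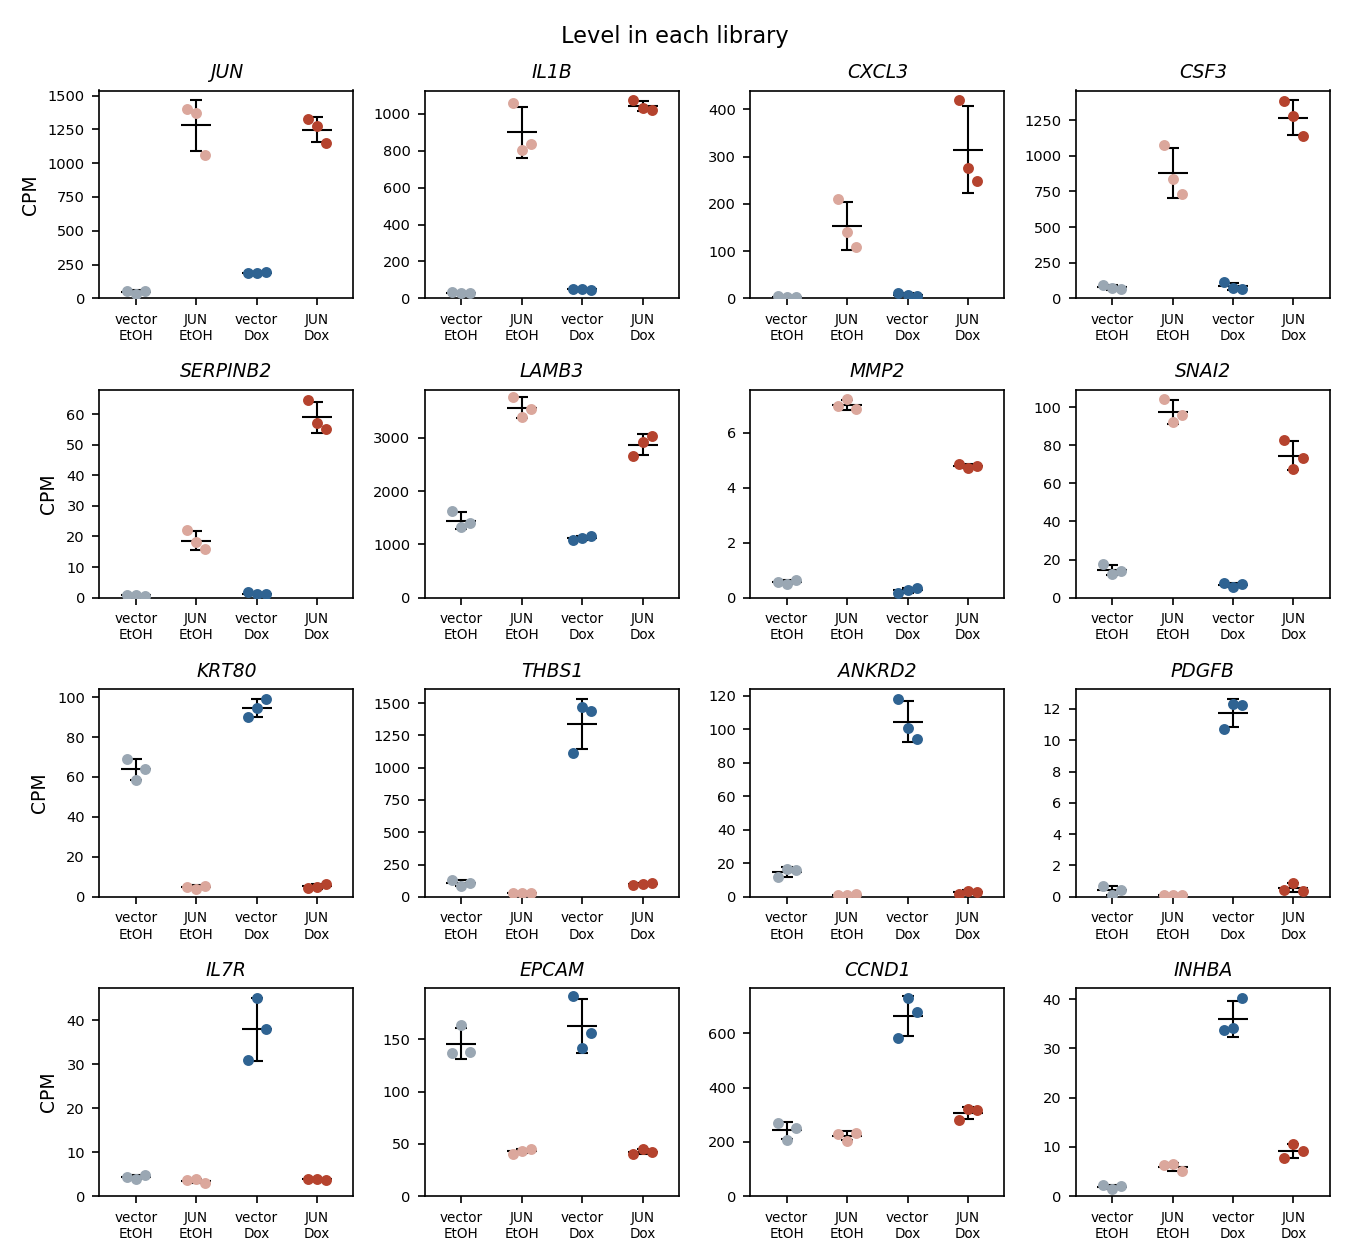
Level in CPM of 16 genes in each of the 12 libraries (points), with the mean and SD of each group of 3 (bars); every axis starts at 0. In each panel the JUN Dox libraries lie above all vector Dox libraries for the first 8 genes and below them for the last 8.

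Extracellular proteolysis changed in both directions. Of 14 tested plasminogen activators, matrix metalloproteinases and inhibitors 8 were called higher and 4 lower (median 0.79, and 0.38 over 20 members with DESeq2 on the unfiltered table). SERPINB2, an inhibitor of plasminogen activators and the gene with the first promoter above, had 1.7, 1.08 and 1.2 CPM in the vector Dox libraries and 64.8, 57.2 and 55.1 CPM in the JUN Dox libraries (log2 5.47, SE 0.18). PLAT, the tissue plasminogen activator, had 17.5, 17 and 14.9 CPM in the vector Dox libraries and 94.3, 88.2 and 79.4 CPM in the JUN Dox libraries (log2 2.41, SE 0.12). MMP2, a gelatinase, had 0.174, 0.27 and 0.33 CPM in the vector Dox libraries and 4.87, 4.71 and 4.8 CPM in the JUN Dox libraries (log2 4.18, SE 0.23). In all 3 genes the JUN Dox libraries lay far above the vector Dox libraries. MMP2 had fewer than 10 counts, the minimum of the filter, in each vector Dox library. Those libraries alone would not have kept it among the tested genes, and its fold rests on few counts. SERPINE2, another protease inhibitor, went the other way, from 17.4 ± 2.19 CPM to 3.31 ± 0.227 CPM (log2 -2.39, SE 0.17). Across the 4 genes the edgeR adjusted p was 7.7e-11 to 1.1e-07. Of 15 ADAM and ADAMTS proteases 7 were called higher and 1 lower (53.3% called, against 35.6% of all tested genes). ADAMTS6 was higher by 2.39 (SE 0.17) (edgeR adjusted p = 1e-07). The number lower was 2 without vector Dox replicate 1 or without JUN Dox replicate 3, with a replicate block or with DESeq2.

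Ligands of the EGF receptor were among the growth factors that rose. Of 13 tested ligands and receptors 5 were called higher and 2 lower (median 0.47, 53.8% called, against 35.6% of all tested genes). EPGN had 64, 70.5 and 66.5 CPM in the vector Dox libraries and 583, 479.9 and 443 CPM in the JUN Dox libraries (log2 2.90, SE 0.15). EREG had 7.37, 6.49 and 6.65 CPM in the vector Dox libraries and 53.1, 44.5 and 31.8 CPM in the JUN Dox libraries (log2 2.65, SE 0.20). AREG had 716, 483 and 520.2 CPM in the vector Dox libraries and 1906, 1596 and 1418 CPM in the JUN Dox libraries (log2 1.52, SE 0.16). The groups were separate for each of these ligands. NRG1, which binds ERBB3 and ERBB4, was lower, from 26.1 ± 3.54 CPM to 9.07 ± 0.498 CPM (log2 -1.52, SE 0.14). Adjusted over all genes, the edgeR p of the 4 genes was 3.83e-09 to 5.58e-06. Of 16 feedback genes of the MAPK pathway 7 were called higher and 4 lower. SPRED3 and IER3 were higher by 2.40 and 1.27, and SPRY1 and DUSP8 lower at -1.71 and -1.65 (log2).

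Genes of the basement membrane and its receptors rose more often than they fell. Of 22 integrins and laminins 15 were called higher and 4 lower, with a median of 0.66. LAMB3 had 1088, 1122 and 1163 CPM in the vector Dox libraries and 2651, 2916 and 3036 CPM in the JUN Dox libraries (log2 1.35, SE 0.12). It encodes a chain of laminin-332, the laminin that anchors epithelial cells, and its groups did not overlap. ITGA5, the alpha chain of the fibronectin receptor, was higher by 1.54 (SE 0.15), and ITGB6 by 1.31 (SE 0.20). The edgeR adjusted p of the 3 genes was 8.78e-07 to 0.000138. The number lower was 2 without JUN Dox replicate 2 or 3, and 1 in the fit to the 6 libraries. The number higher was 14 or 15 under each alternative run.

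Of 25 genes for fibronectin, collagens and matrix crosslinkers 13 were called higher and 4 lower (median 0.40, and 0.15 over 31 members with DESeq2 on the unfiltered table). FN1, fibronectin, had 24.6, 43.8 and 37.3 CPM in the vector Dox libraries and 278, 256 and 198 CPM in the JUN Dox libraries (log2 2.79, SE 0.22). POSTN, periostin, had 0.567, 0.856 and 0.33 CPM in the vector Dox libraries and 18.6, 11.4 and 18.6 CPM in the JUN Dox libraries (log2 4.79, SE 0.31). FBN1, the microfibril protein fibrillin, was higher by 2.65 (SE 0.17). JUN Dox replicate 2 had the lowest POSTN of its group but lay far above vector Dox. Vector Dox replicate 3 had fewer than 10 POSTN counts, the minimum of the filter on low counts. The member that fell furthest was THBS1, given with the YAP-linked genes. TGFBI, a matrix protein that integrins bind, had the largest rise in CPM of all called genes and was higher by 1.49 (SE 0.15), at 1225 ± 197 CPM in vector Dox and 3433 ± 406 CPM in JUN Dox. Adjusted p values (edgeR) for FN1, POSTN, FBN1 and TGFBI were 2.79e-08 to 2.76e-06.

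Of 14 tested markers and factors of the mesenchymal state 7 were called higher and 3 lower (median 0.65, and 0.22 over 15 members with DESeq2 on the unfiltered table). SNAI2, a zinc finger repressor of epithelial genes, had 7.46, 5.41 and 7.39 CPM in the vector Dox libraries and 82.6, 67.4 and 73.4 CPM in the JUN Dox libraries (log2 3.46, SE 0.16). ZEB2, a repressor of the same kind, had 1.35, 2.12 and 2.27 CPM in the vector Dox libraries and 20.4, 16.2 and 15.1 CPM in the JUN Dox libraries (log2 3.16, SE 0.21). VIM, the intermediate filament vimentin, had 482, 589 and 582 CPM in the vector Dox libraries and 1307, 1663 and 2018 CPM in the JUN Dox libraries (log2 1.59, SE 0.16). The groups were apart in each case. DCN, decorin, was higher by 1.95 (SE 0.32). SNAI1, a relative of SNAI2, was lower, from 2.95 ± 0.341 CPM to 0.761 ± 0.101 CPM (log2 -1.93, SE 0.22), and was named after its value was seen. By the edgeR test the adjusted p of the 5 genes was 9.44e-10 to 0.000307.

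Epithelial junction and polarity genes were mostly lower. Of 27 tested 4 were called higher and 15 lower, with a median of -0.49. EPCAM, a surface adhesion protein of epithelia, had 191, 141 and 156 CPM in the vector Dox libraries and 40.6, 44.8 and 42.1 CPM in the JUN Dox libraries (log2 -1.94, SE 0.12). CLDN7, a tight junction claudin, was lower at -2.0 (SE 0.13), with the limit that its exons overlap ELP5. CGN, the tight junction protein cingulin, was lower at -2.16 (SE 0.23). CDH1, E-cadherin, was lower in JUN Dox, at 129 ± 15.5 CPM in vector Dox and 58.7 ± 9.44 CPM in JUN Dox (log2 -1.14, SE 0.12). For EPCAM, CLDN7, CGN and CDH1 all JUN Dox libraries lay under all vector Dox libraries, with edgeR adjusted p values of 2.05e-08 to 5.06e-06. ELF3, an epithelial ETS factor in this list, was higher by 2.48 (SE 0.27), from 0.58 ± 0.0908 CPM to 3.24 ± 0.187 CPM (edgeR adjusted p = 6.46e-06). Over the alternatives run, 3 or 4 genes of this list were higher and 14 to 16 lower.

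Keratins moved in both directions. Of 14 tested 6 were called higher and 5 lower (median 0.01, and -0.19 over 17 members with DESeq2 on the unfiltered table), and the number higher was 3 without vector Dox replicate 1, without JUN Dox replicate 3 or in the fit to the 6 libraries. KRT80 was far lower, with 90.2, 94.3 and 99.3 CPM in the vector Dox libraries and 4.16, 4.84 and 6.64 CPM in the JUN Dox libraries (log2 -4.16, SE 0.16). The simple-epithelial keratins KRT8 and KRT18, which pair with each other, were lower at -1.11 (SE 0.17) and -1.13 (SE 0.18). KRT7 was lower at -1.64 (SE 0.16), and KRT86, KRT81, HSP90AA1 and KRT7, in this order, had the largest falls in CPM. The spans of KRT7, KRT81 and KRT86 overlap, so their values are uncertain. KRT14, the keratin of basal cells, had 75.1, 65.5 and 59.4 CPM in the vector Dox libraries and 159.6, 363 and 319 CPM in the JUN Dox libraries (log2 2.07, SE 0.27), with JUN Dox replicate 1 the lowest of its group but above all vector Dox libraries. KRT16 was higher by 1.23 (SE 0.27), and KRT5, the usual partner of KRT14, did not pass (log2 -0.08, SE 0.17, edgeR adjusted p = 0.739). TP63, a master factor of basal epithelium, was higher by 1.25 (SE 0.15), while the basal adhesion genes CDH3 (log2 -0.41, SE 0.09) and ITGB4 (log2 -0.35, SE 0.17, edgeR adjusted p = 0.124) were lower and not called, respectively. Without vector Dox replicate 1 ITGB4 was called lower (-0.53). Of the 10 genes in the basal list 4 were called higher (KRT14, KRT17, TP63 and KRT6A) and 4 lower (KRT7, EPCAM, CDH1 and CDH3). Of the lower ones KRT7, EPCAM and CDH1 are not particular to basal cells. The number higher was 2 without vector Dox replicate 1 or JUN Dox replicate 3 or in the fit to the 6 libraries. Of 20 squamous differentiation genes 7 were called higher and 3 lower (50% called, against 35.6% of all tested genes). TGM1, the crosslinking enzyme of the cornified envelope, was lower at -1.64 (SE 0.12).

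**Figure D3:**
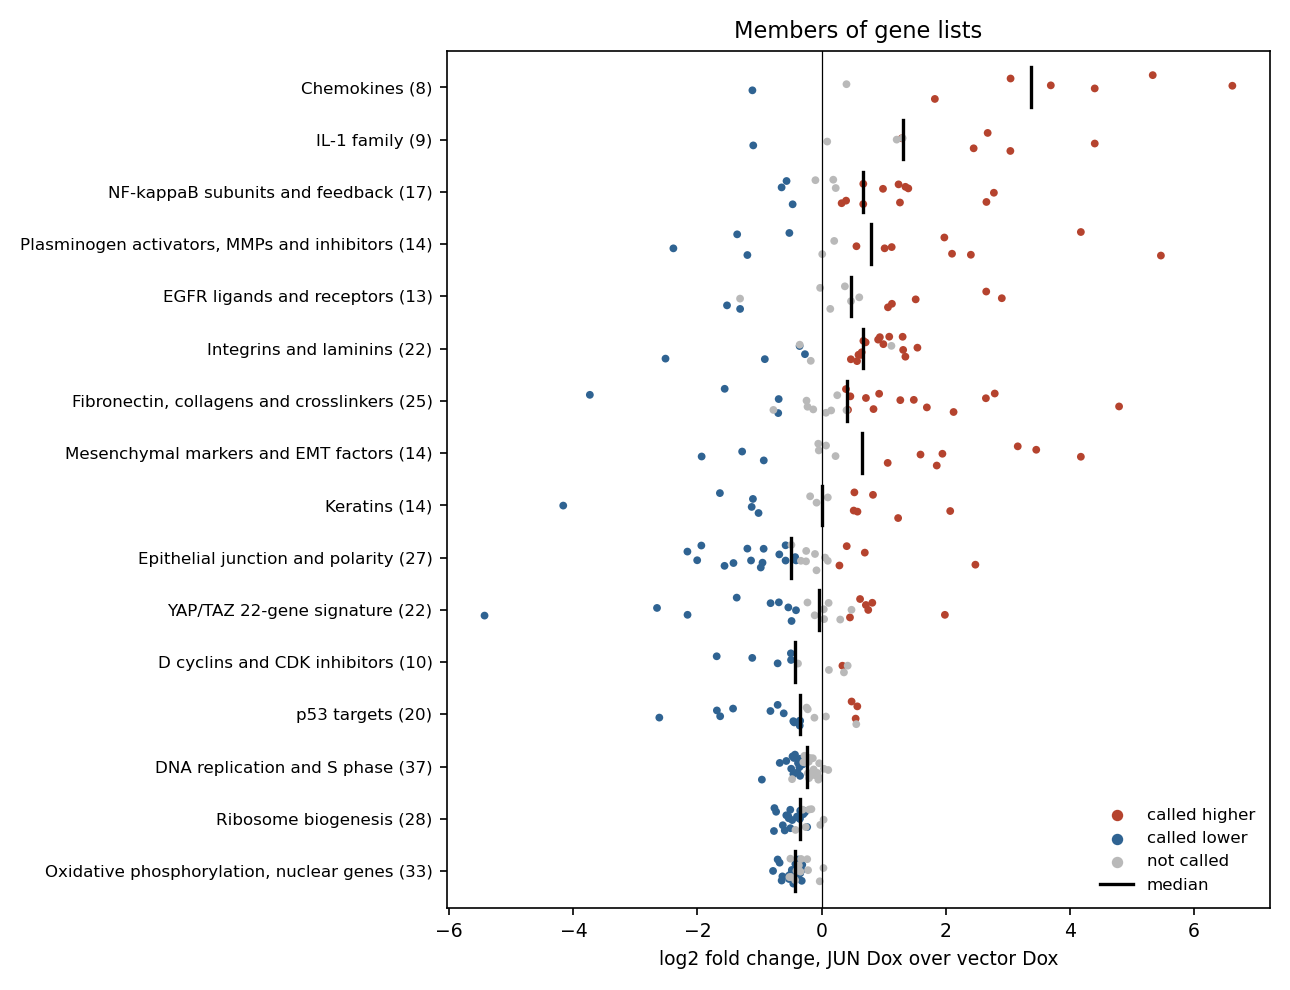
Log2 fold change, JUN Dox over vector Dox, of the tested members of 16 gene lists (number tested in brackets); red and blue points passed the test, grey points did not, and the black bar is the median of the list. Among tested members, chemokines have the highest median of these lists, 3.37, and epithelial junction genes the lowest, -0.49.

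The genes that fell furthest included several that YAP is known to induce. ANKRD1, a muscle-type ankyrin repeat protein and a standard YAP readout, had 10.9, 9.37 and 11.4 CPM in the vector Dox libraries and 0.251, 0.216 and 0.249 CPM in the JUN Dox libraries. ANKRD2, its relative, had 118, 101 and 94.3 CPM in the vector Dox libraries and 1.66, 3.76 and 2.98 CPM in the JUN Dox libraries. THBS1, the matrix protein thrombospondin 1, had 1117, 1467 and 1437 CPM in the vector Dox libraries and 92.8, 99.1 and 110.0 CPM in the JUN Dox libraries. For each of the 3 genes every vector Dox library was more than 10 times every JUN Dox library. The log2 fold changes were -5.43 (SE 0.28), -5.20 (SE 0.23) and -3.73 (SE 0.16), and edgeR gave adjusted p values of 3.91e-09, 7.7e-10 and 7.4e-10. In the uninduced vector cells the same genes stood at 0.274 ± 0.0277 CPM, 14.8 ± 2.8 CPM and 108 ± 21.4 CPM (SD, n = 3). JUN Dox was thus close to the uninduced level for ANKRD1 and THBS1 and below it for ANKRD2, as values side by side with no test. ANKRD1 had fewer than 10 counts, the minimum of the filter, in each JUN Dox and vector EtOH library. Its fold and its closeness to the uninduced level rest on few counts.

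PDGFB, a mitogen for mesenchymal cells, had 10.7, 12.3 and 12.2 CPM in the vector Dox libraries and 0.451, 0.908 and 0.355 CPM in the JUN Dox libraries (log2 -4.37, SE 0.33). IL7R, a cytokine receptor chain, had 30.9, 45.2 and 38 CPM in the vector Dox libraries and 3.86, 3.89 and 3.59 CPM in the JUN Dox libraries (log2 -3.33, SE 0.16). NRARP, a feedback protein of Notch, had 12.6, 13.7 and 12.8 CPM in the vector Dox libraries and 1.45, 1.73 and 0.888 CPM in the JUN Dox libraries (log2 -3.28, SE 0.21). All 3 are among the 12 lowest genes, for which groups that do not overlap were a condition of choice. PDGFB and IL7R in JUN Dox were close to their uninduced vector levels of 0.411 and 4.4 CPM, and for PDGFB both levels rest on few counts. SYT8, a synaptotagmin, was lower at -5.25 (SE 0.22), the cystatin CST6 at -4.35 (SE 0.34), SUSD2 at -3.53 (SE 0.26) and the actin-bundling protein AIF1L at -2.99 (SE 0.25). For these 4 the uninduced vector cells stood at 63, 13, 37.8 and 28.2 CPM, far above JUN Dox. SERTAD4 was lower at -2.98 (SE 0.16) and shares exons with its antisense gene. Across the 8 genes the edgeR adjusted p was 4.28e-10 to 5.41e-07.

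The common 22-gene signature of YAP and TAZ targets did not move in 1 direction. Of its 22 tested genes 6 were called higher and 9 lower, and the median was -0.04. Besides ANKRD1, TGFB2, a TGF-beta ligand, was lower at -2.65 (SE 0.20) and NUAK2, a kinase of the AMPK family, at -2.16 (SE 0.13). CCN2 went from 187 ± 18 CPM to 72.4 ± 2.58 CPM (log2 -1.37, SE 0.14) and CCN1 from 1895 ± 88.6 CPM to 1072 ± 4.41 CPM (log2 -0.82, SE 0.12). Both are secreted matricellular proteins. NT5E, the ecto-enzyme CD73, was higher instead, with 76.3, 79.9 and 76.1 CPM in the vector Dox libraries and 341, 312 and 268 CPM in the JUN Dox libraries (log2 1.99, SE 0.12). F3, tissue factor, was higher by 0.75 (SE 0.19) and CCDC80 by 0.82 (SE 0.10). IGFBP3 was not called (log2 0.11, SE 0.21, edgeR adjusted p = 0.699) and turned to -0.24 without JUN Dox replicate 1. Adjusted over all genes, the edgeR p of TGFB2, NUAK2, CCN1, CCN2, NT5E, F3 and CCDC80 was 1.52e-08 to 0.00737. Over the alternatives run, 5 to 7 of the 22 were higher and 7 to 10 lower.

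**Figure D4:**
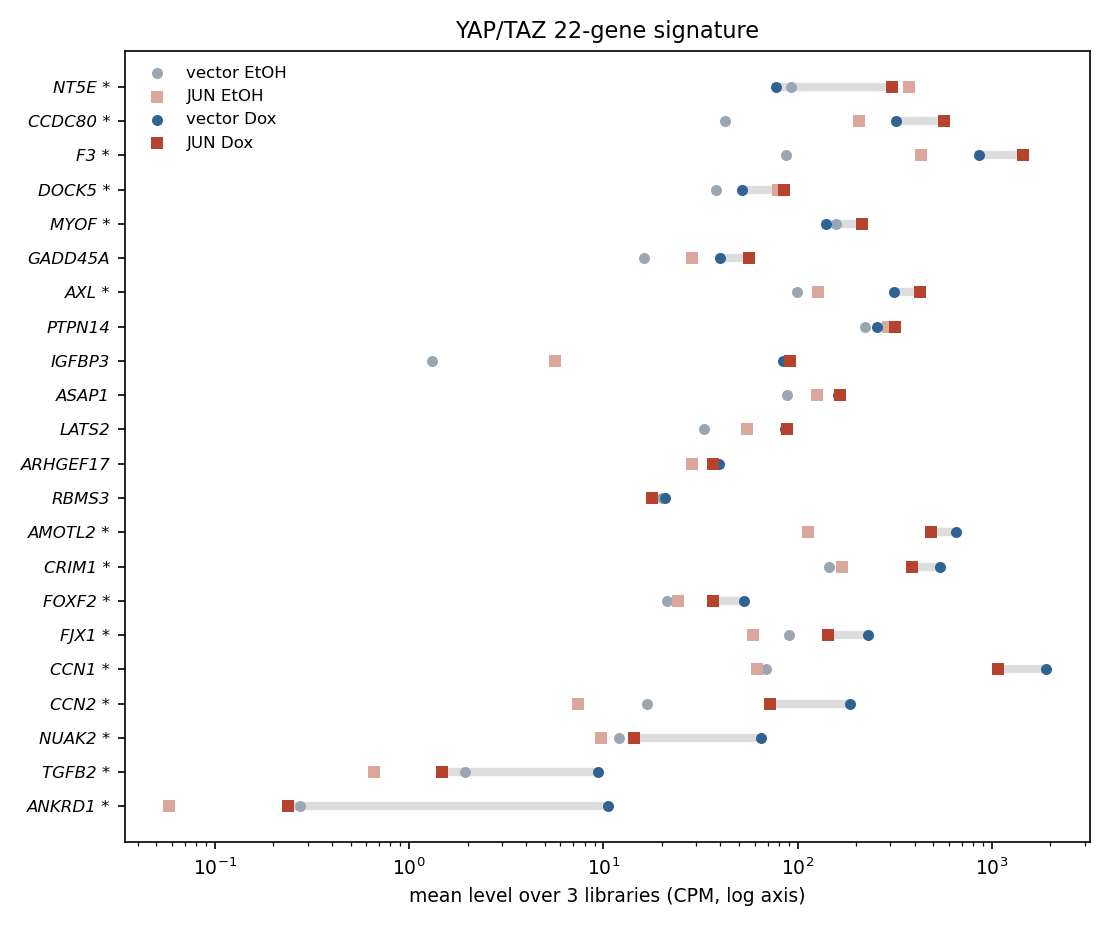
Mean level in CPM (log axis) of the 22 signature genes in the 4 groups, ordered by the log2 fold change of JUN Dox over vector Dox; the grey bar joins those 2 groups and an asterisk marks genes that passed the test. NT5E lies at the top, with JUN Dox to the right of vector Dox, and ANKRD1 at the bottom, with JUN Dox far to the left of vector Dox.

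A longer list of YAP-induced genes (Top-YAP-induced, TYI), which the study defined in another induction experiment, was taken for its membership. Its 434 rows name 407 distinct genes. In the vector cells of this experiment 268 of the 401 tested were called higher with Dox than with ethanol (edgeR), and 40 had a log2 fold change below 0. Of its 401 tested genes 166 (41.4%) were called lower and 72 (17.96%) higher, with a median log2 fold change of -0.22, against 17.2% lower and 18.4% higher among all tested genes. By at least 1 on the log2 scale 48 were lower and 37 higher. Of the 166 lower genes 91 were also called lower by JUN without induction, 66 were not called there and 9 were called higher there. The 6 lowest fold changes in this list were those of ANKRD2, THBS1, SUSD2, MAP2, AIF1L and BDNF, of which SUSD2 and AIF1L were not raised by Dox in vector cells (log2 -0.23 and -0.18), and the 3 highest those of IL1B, EPGN and IL1A. BDNF, a neurotrophin named after its value was seen, had 46.8, 51.9 and 56.8 CPM in the vector Dox libraries and 7.63, 6.31 and 6.82 CPM in the JUN Dox libraries (log2 -2.91, SE 0.18), with the groups apart. GJA5, the gap junction protein connexin 40, had 23.7, 26.7 and 24.5 CPM in the vector Dox libraries and 4.57, 5.23 and 3.98 CPM in the JUN Dox libraries (log2 -2.45, SE 0.14, edgeR adjusted p = 1.47e-08).

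Genes of the pathway itself moved both ways. Of 8 YAP, TAZ and TEAD genes 2 were called higher and 3 lower. The number higher was 1 without vector Dox replicate 1 or 3 or JUN Dox replicate 1 or 2, with GC correction or in the fit to the 6 libraries, and the number lower 1 without vector Dox replicate 2. TEAD4 was lower at -0.76 (SE 0.12) (edgeR adjusted p = 0.000276), TEAD1 at -0.68 (SE 0.19) and TEAD2 at -0.44 (SE 0.15), while TEAD3 did not pass (log2 -0.15, SE 0.14). The TEAD1 groups overlapped. Its call was lost without vector Dox replicate 2 or 3, and that of TEAD2 without vector Dox replicate 2, without JUN Dox replicate 1 or 2 and in the fit to the 6 libraries, where the edgeR adjusted p reached 0.0519 and 0.138. VGLL3, a TEAD cofactor, was higher by 1.21 (SE 0.17) (edgeR adjusted p = 7.21e-05), from 39.8 ± 7.02 CPM to 92 ± 21.6 CPM. WWTR1, which encodes TAZ, was higher by 0.29 (SE 0.10), a call lost in 7 of 21 alternatives. Of 18 Hippo kinases and scaffolds 7 were called higher and 3 lower (55.6% called, against 35.6% of all tested genes). The largest change was that of AMOTL1, a junction scaffold that binds YAP, at 1.20 (SE 0.18). The number higher was 4 with GC correction or without JUN Dox replicate 1 and 3 without vector Dox replicate 1 or in the fit to the 6 libraries, and 1 was lower without vector Dox replicate 3 or in the fit to the 6 libraries.

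Among 14 AP-1 subunits 3 were called higher and 4 lower (50% called, against 35.6% of all tested genes). Those higher were JUN itself, FOSL1 and MAFF. MAFF was higher by 0.33 and lost its call in 13 of 21 alternatives. FOSL1, a FOS family partner of JUN, had 179, 215 and 229.6 CPM in the vector Dox libraries and 379, 403 and 483 CPM in the JUN Dox libraries (log2 1.02, SE 0.13). JUND, a JUN relative, had 94.3, 78 and 78.5 CPM in the vector Dox libraries and 26.2, 46 and 46.6 CPM in the JUN Dox libraries (log2 -1.07, SE 0.18). In both genes the groups were separate, and the edgeR adjusted p was 2.32e-05 and 0.000279. ATF3 was lower at -0.63 (SE 0.22), a call lost in 6 of 20 alternatives, namely the fit to the 6 libraries and those without vector Dox replicate 1 or 2, JUN Dox replicate 1 or 3, or vector EtOH replicate 3 (highest edgeR adjusted p 0.138). Of 13 corepressor genes 2 were called higher and 1 lower, a share of 23.1% called against 35.6% of all tested genes. Over the alternatives run 1 to 4 were higher and 0 to 2 lower, with 4 higher without vector Dox replicate 2, 1 higher without vector Dox replicate 1 or JUN Dox replicate 2 or 3, and none lower without JUN Dox replicate 1 or 2 or vector Dox replicate 2 or 3. In the fit to the 6 libraries 1 was higher and 0 were lower, and 2 were lower with GC correction or DESeq2. NCOR1 was higher by 0.31 (SE 0.10) and lost its call in 6 of 21 alternatives, and its exons overlap TTC19.

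Among the cell cycle genes that were called, more were lower than higher. Of 10 D cyclins and CDK inhibitors 1 was called higher and 5 lower. CCND1, cyclin D1, had 583, 731 and 679 CPM in the vector Dox libraries and 281, 321 and 316 CPM in the JUN Dox libraries (log2 -1.12, SE 0.12). CDKN1A, the inhibitor p21, had 361, 357 and 325 CPM in the vector Dox libraries and 194, 229.6 and 214 CPM in the JUN Dox libraries (log2 -0.71, SE 0.10). Neither gene overlapped between groups. The number higher was 0 without JUN Dox replicate 2, without vector Dox replicate 2 or 3 or in the fit to the 6 libraries, and 2 with GC correction. Of 37 genes of DNA replication and S phase 0 were called higher and 14 lower (median -0.24). The 37.8% called were thus all lower, against 17.2% called lower and 18.4% called higher among all tested genes. In either direction 35.6% of all tested genes were called. PCNA, the sliding clamp, was lower at -0.57 (SE 0.11) and the activator E2F2 at -0.96 (SE 0.13). The number lower was 8 in the fit to the 6 libraries and 19 with GC correction. Of 30 mitosis genes 2 were called higher and 7 lower (30.0% called), and CDC20, an activator of the anaphase complex, was lower at -0.62 (SE 0.12). In the fit to the 6 libraries 1 mitosis gene was higher and 2 were lower. The 2 higher mitosis genes lost their calls with GC correction, without vector Dox replicate 1 and without JUN Dox replicate 1. The edgeR adjusted p of CCND1, CDKN1A, PCNA, E2F2 and CDC20 was 7.41e-06 to 0.00128.

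Of 20 targets of p53 3 were called higher and 12 lower (median -0.35). GDF15, a stress cytokine, had 19.3, 22.8 and 18.4 CPM in the vector Dox libraries and 2.26, 3.98 and 3.52 CPM in the JUN Dox libraries (log2 -2.62, SE 0.20). FDXR, BBC3 and BTG2 were lower at -1.69, -1.63 and -1.43 (log2). For all 4 genes the groups were separate, with edgeR adjusted p values of 1.51e-07 to 2.62e-05. Of 16 BCL2 family genes 1 was called higher and 6 lower (43.75% called, against 35.6% of all tested genes). HRK, a death activator, had 2.7, 2.34 and 2.31 CPM in the vector Dox libraries and 0.1, 0.605 and 0.0711 CPM in the JUN Dox libraries (log2 -3.24, SE 0.49). Its log2 fold change was -4.79 without JUN Dox replicate 2, and the other two JUN Dox libraries were under the level of 3 counts. BCL2A1, a survival protein and the member called higher, had 0.305, 0 and 0.0826 CPM in the vector Dox libraries and 1.91, 2.77 and 0.995 CPM in the JUN Dox libraries (log2 3.79, SE 0.63), with 2 of its vector Dox libraries under the level of 3 counts and a log2 fold change of 5.28 without the remaining one, replicate 1. The number higher in this list was 2 without vector Dox replicate 1 or JUN Dox replicate 3 or with a replicate block.

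Biosynthetic genes shifted downward by small amounts. Of 28 ribosome biogenesis genes 0 were called higher and 21 lower (median -0.35). FBL, the nucleolar methyltransferase fibrillarin, was lower at -0.62 (SE 0.15), LYAR at -0.73 (SE 0.12) and RRP9 at -0.77 (SE 0.15). The number lower was 11 without JUN Dox replicate 2 and 10 in the fit to the 6 libraries, and none was higher under any alternative run. Of 33 nuclear genes of oxidative phosphorylation 0 were called higher and 21 lower (median -0.42), with UQCRFS1 lower at -0.78 (SE 0.14) and CYCS, cytochrome c, at -0.71 (SE 0.13). This count rested on single libraries. It was 7 without vector Dox replicate 1 or in the fit to the 6 libraries, 11 without JUN Dox replicate 1, 13 without JUN Dox replicate 2 and 26 with GC correction. Vector Dox replicate 1 had the highest level of UQCRFS1, CYCS and SDHB in its group (203, 529.7 and 90.9 CPM). Adjusted p values (edgeR) for FBL, LYAR, RRP9, UQCRFS1 and CYCS were 0.000276 to 0.00593.

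Of 19 genes of the ATF4 stress response and amino acid supply 3 were called higher and 9 lower, and 4 were lower in the fit to the 6 libraries. SLC3A2, a chain of amino acid transporters, was lower at -0.78 (SE 0.13), and ASNS, asparagine synthetase, at -0.72 (SE 0.12). VLDLR, a lipoprotein receptor, was higher by 2.01 (SE 0.24). Of 21 antioxidant genes of NRF2 3 were called higher and 8 lower (52.4% called, against 35.6% of all tested genes). The number lower was 5 without vector Dox replicate 3. SRXN1 and GCLC, a subunit of glutathione synthesis, were lower at -0.70 and -0.73, and HMOX1, heme oxygenase 1, was higher by 1.24 (log2). Of 33 genes of hypoxia and glycolysis 10 were called higher and 4 lower (42.4% called, against 35.6% of all tested genes). The mitophagy receptor BNIP3L was higher by 1.58 (SE 0.11). Of 27 genes of cholesterol and fatty acid synthesis 2 were called higher and 6 lower (29.6% called). MVD, an enzyme of the mevalonate pathway, was lower at -0.71 (SE 0.15), and the number lower in this list was 2 without JUN Dox replicate 1 or in the fit to the 6 libraries and 10 with GC correction. The number higher was 1 without vector Dox replicate 1 or JUN Dox replicate 1 or 2. By the edgeR test the adjusted p of SLC3A2, ASNS, VLDLR, SRXN1, GCLC, HMOX1, BNIP3L and MVD was 8.39e-08 to 0.00256.

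Signalling pathways were mixed. Of 28 genes of TGF-beta, activin and BMP 8 were called higher and 7 lower (53.6% called, against 35.6% of all tested genes). LTBP1, which stores latent TGF-beta in the matrix, had 33.5, 41.1 and 40.5 CPM in the vector Dox libraries and 220.5, 208 and 202 CPM in the JUN Dox libraries (log2 2.45, SE 0.12). ATOH8, a helix-loop-helix factor that BMP induces, was higher by 4.06 (SE 0.24), with few counts in vector Dox. Of 26 WNT pathway genes 3 were called higher and 9 lower (46.2% called, against 35.6% of all tested genes). WNT5A, a ligand of non-canonical signalling, had 8.55, 8.97 and 9.91 CPM in the vector Dox libraries and 69.8, 73.2 and 60.0 CPM in the JUN Dox libraries (log2 2.89, SE 0.15). DKK1, a secreted WNT antagonist, had 159.9, 122 and 130.2 CPM in the vector Dox libraries and 54.4, 43.2 and 49.4 CPM in the JUN Dox libraries (log2 -1.49, SE 0.12). The groups did not overlap in either gene, and LGR4 was higher by 1.36 (SE 0.13). The number lower was 4 in the fit to the 6 libraries and 5 without vector Dox replicate 2 or 3 or without JUN Dox replicate 2, and the number higher was 5 without vector Dox replicate 2. Of 14 Notch genes 4 were called higher and 5 lower, with 2 higher without vector Dox replicate 3, without JUN Dox replicate 1 or 2 or in the fit to the 6 libraries. Across LTBP1, ATOH8, WNT5A, DKK1 and LGR4 the edgeR adjusted p was 1.95e-09 to 1.67e-06.

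Of 10 IGF binding proteins and IGF signalling genes 5 were called higher and 3 lower, and 3 were higher without JUN Dox replicate 2 or in the fit to the 6 libraries. IGFBP2 was lower at -3.61 (SE 0.24) and IRS1, an adaptor of the insulin receptor, at -1.23 (SE 0.19), while IGFBP4 and IGFBP6 were higher by 1.94 and 1.25 (log2). Of 20 genes of prostaglandin and retinoid metabolism 8 were called higher and 4 lower. PTGS2, the inducible cyclooxygenase, had 5.93, 5.09 and 4.54 CPM in the vector Dox libraries and 42.1, 37.6 and 30.7 CPM in the JUN Dox libraries (log2 2.83, SE 0.22), with no overlap between groups. ALDH1A2, which makes retinoic acid, and the water and glycerol channel AQP9 were higher by 5.59 and 5.88, but they share exons on opposite strands and had mean counts of 181.2 and 178.8, so it cannot be told which of them rose. By these folds few of the counts of either gene came from vector Dox. Of 30 ephrins, semaphorins and receptors 8 were called higher and 5 lower (43.3% called, against 35.6% of all tested genes). The number lower was 3 without JUN Dox replicate 1 or in the fit to the 6 libraries. NRP1, a co-receptor for semaphorins and VEGF, was higher by 2.01 (SE 0.13) and EFNA1 lower at -1.67 (SE 0.16). Of 15 epithelial lineage factors 7 were called higher and 4 lower. EHF, an epithelial ETS factor, had 1.96, 2.79 and 1.82 CPM in the vector Dox libraries and 17.6, 24.3 and 20.4 CPM in the JUN Dox libraries (log2 3.25, SE 0.18), with the groups apart. SOX9 and TFAP2C were lower at -1.42 and -1.40 (log2). Adjusted over all genes, the edgeR p of IGFBP2, IRS1, PTGS2, NRP1, EFNA1, EHF, SOX9 and TFAP2C was 7.26e-09 to 0.000165.

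Of 27 interferon and antigen presentation genes 5 were called higher and 5 lower (median 0.09), so that 10 of the 27 were called, close to the share of 35.6% over all tested genes, and 3 were lower in the fit to the 6 libraries. The interferon-induced IFI44L was lower at -1.88 (SE 0.20) and STAT2 higher by 0.87 (SE 0.14). Of 20 cytoskeletal genes linked to actin and SRF 7 were called higher and 3 lower (50% called, against 35.6% of all tested genes). TPM1, a tropomyosin, had 149, 116 and 119 CPM in the vector Dox libraries and 49.4, 43.3 and 49.5 CPM in the JUN Dox libraries (log2 -1.43, SE 0.11). The actins ACTB and ACTG1 came next after KRT7 in the size of their fall in CPM, with log2 fold changes of -0.51 and -0.75, but ACTB lost its call without vector Dox replicate 1 or without JUN Dox replicate 1 or 2 (edgeR adjusted p up to 0.0620), and in the fit to the 6 libraries (0.0885). HSP90AA1, a cytosolic chaperone, fell from 6574 ± 1147 CPM to 3136 ± 189 CPM (log2 -1.07, SE 0.13, edgeR adjusted p = 2.8e-05). Of 13 ion and water channels 3 were called higher and 3 lower (46.2% called, against 35.6% of all tested genes).

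Most of what JUN changed with induction it also changed without induction, in libraries that the first comparison does not use. In JUN EtOH against vector EtOH 2969 genes (20.1% of those tested) were called higher and 2797 (18.9%) lower. These calls come from 1 fit over all 12 libraries. Fits to the 6 libraries of each comparison alone called 7282 genes without induction and 3439 with it. The shared calls below were not counted in those fits. Of the genes higher with induction 75.2% were higher without it, and of those higher without it 69.0% were higher with it, 2048 genes in all. For lower genes the shares were 71.5% and 65.0%, 1819 genes in all. Without JUN EtOH replicate 1 the comparison called 3823 genes, 1742 of them lower, against 5766 with all libraries. Some inflammatory genes were in this common part. IL1B differed by 4.40 with and 4.92 without induction, CXCL8 by 3.69 and 4.08, SNAI2 by 3.46 and 2.74, and LAMB3 by 1.35 and 1.30 (log2), and none of these 4 genes was called for a difference between the effects. None of the 8 tested chemokines and 9 tested IL-1 family genes was called for it, but 3 of 16 other cytokines and receptors (IL7R, IL6 and LIF) and 2 of 17 NF-kappaB genes (BCL3 and ICAM1) were. IL6, LIF and ICAM1 were named after their values were seen. IL6 differed by 0.72 with and -1.91 without induction (difference 2.63, edgeR adjusted p = 0.0151), a call lost without JUN EtOH replicate 2, and the call of LIF was lost in 13 of 20 alternatives. Although 1370 genes were called with induction alone, the difference of effects itself was called for 51 of them.

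**Figure D5:**
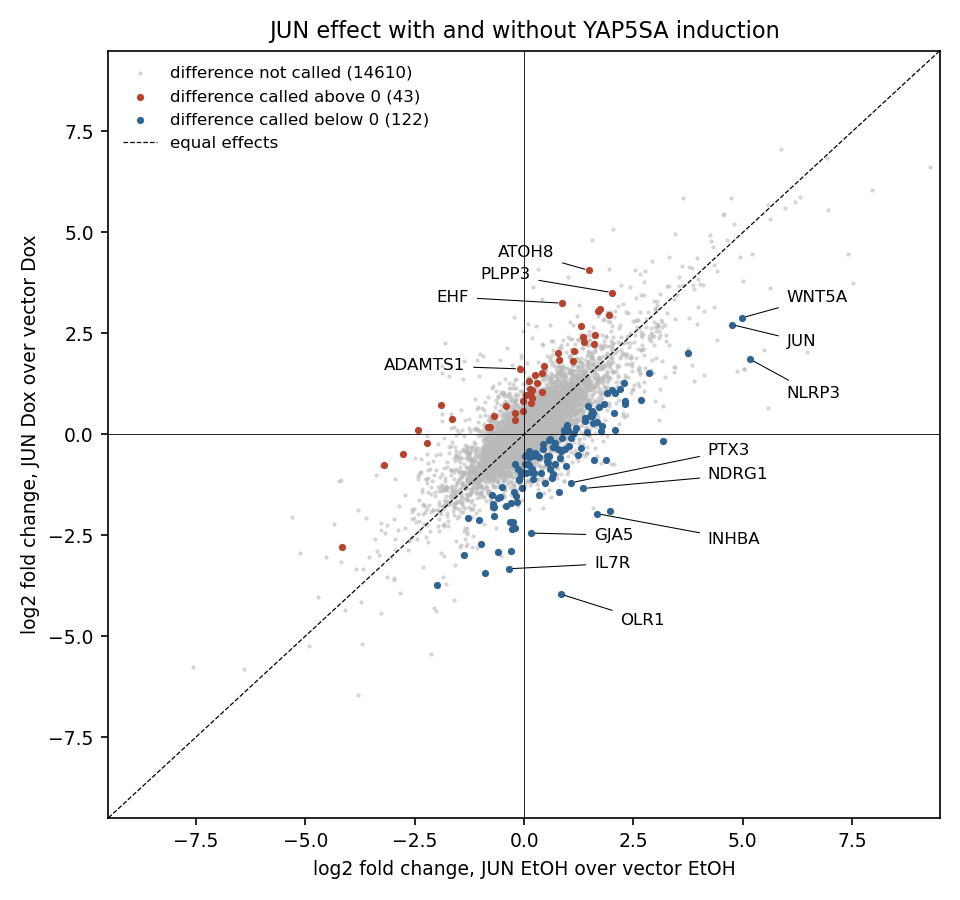
Log2 fold change of JUN over vector without induction (x axis) and with induction (y axis) for 14775 tested genes; coloured points are the 165 genes called for the difference of the effects, and the dashed line marks equal effects. INHBA, NDRG1 and PTX3 lie to the right of 0 on the x axis and under 0 on the y axis.

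The effect of JUN with induction was set against that without it. The difference of effects, the log2 fold change of JUN Dox over vector Dox minus that of JUN EtOH over vector EtOH, was called for 165 genes (1.12%), 43 above and 122 below 0, and 131 of them were also called in JUN Dox against vector Dox. The count was 97, 99 and 107 without vector EtOH replicate 3, JUN EtOH replicate 2 and JUN EtOH replicate 1, and 340 with DESeq2. At an unadjusted p under 0.05 there were 1330 genes, and the share of true differences that this test recovers was not simulated. A positive value marks a gene that JUN left relatively higher with induction. Genes below 0 include INHBA, the activin A subunit, which was lower in JUN Dox at -1.97 (SE 0.15) and higher in JUN EtOH by 1.67 (SE 0.19). In single libraries INHBA had 33.7, 34.2 and 40.3 CPM in the vector Dox libraries and 7.73, 10.6 and 9.24 CPM in the JUN Dox libraries, against 2.21, 1.4 and 1.97 CPM in vector EtOH and 6.29, 6.62 and 5.07 CPM in JUN EtOH. JUN cells thus stood above vector cells without induction and below them with it, with no overlap either time. INHBA overlaps its antisense gene INHBA-AS1, so the 2 cannot be told apart.

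NDRG1, a stress-responsive growth suppressor, also changed direction, at -1.34 with and 1.36 without induction (difference -2.70 (SE 0.20)). PTX3, a soluble pattern recognition protein that shares exons with VEPH1, did so at -1.20 and 1.08. Across all tested genes 25 were lower with and higher without induction and 5 the other way, and 25 of these 30 were called for the difference. The small opposite group includes EPN3 and NFE2, which were under 1 CPM with induction, overlapped between groups and lost their calls in 10 and 3 of 19 alternatives.

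In a second kind of gene JUN had no call without induction and a lower level with it. IL7R differed by -3.33 with and -0.35 without induction (difference -2.98 (SE 0.23)). GJA5 differed by -2.45 and 0.16 (log2 -2.61, SE 0.31), and NUAK2 at -2.16 and -0.32 (log2 -1.84, SE 0.18). CCND1, CDH1, CGN, TPM1 and EFNA1 followed the same order, with differences of -0.99, -1.03, -1.90, -1.20 and -1.50. OLR1, a scavenger receptor at under 2 CPM, had the lowest difference among the genes named, -4.79 (SE 0.82), but 2 of its JUN Dox libraries were under the level of 3 counts. THBS1 was lower both times, at -3.73 and -1.99, and the difference of -1.75 (SE 0.21) was called. The edgeR adjusted p of the difference for INHBA, NDRG1, PTX3, IL7R, GJA5, NUAK2, CCND1, CDH1, CGN, TPM1, EFNA1, OLR1 and THBS1 was 3.67e-06 to 0.0103.

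Some genes that JUN raised were raised less with induction. WNT5A was higher by 2.89 with and 4.98 without it, and its means were 4.89, 155, 9.14 and 67.7 CPM in vector EtOH, JUN EtOH, vector Dox and JUN Dox. NLRP3, the inflammasome sensor, was higher by 1.86 with induction, and went from 0.0759 to 2.8 CPM without it. Its vector EtOH libraries were under the level of 3 counts, so its fitted difference depends on the prior count. JUN itself was higher by 2.72 and 4.75, and vector Dox held 189.7 CPM against 47.6 CPM in vector EtOH, while JUN Dox and JUN EtOH held 1248 and 1279 CPM. The edgeR adjusted p of the difference was 8.22e-05 for WNT5A, 0.00399 for NLRP3 and 0.000133 for JUN.

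Other genes had a larger log2 fold change of JUN over vector with induction. This is a comparison of ratios and not of rises in CPM. EHF went from 2.19 ± 0.527 CPM to 20.8 ± 3.38 CPM with induction and from 23 ± 3.18 CPM to 42.1 ± 2.17 CPM without it (difference 2.38 (SE 0.23)). ATOH8 had means of 0.288 and 4.87 CPM with and 6.01 and 16.8 CPM without induction (log2 2.58, SE 0.30). Its vector Dox mean, and so this difference, rests on few counts. In both factors the lowest level of the 4 groups was that of vector Dox, and JUN Dox stayed below JUN EtOH. ADAMTS1, a matrix protease, was higher in JUN Dox by 1.62 (SE 0.17) at 16.5 ± 1.29 CPM in vector Dox and 50.8 ± 9.99 CPM in JUN Dox and stood at 1.36 and 1.28 CPM in vector EtOH and JUN EtOH. PLAT and NRP1 had differences of 1.07 (SE 0.16) and 1.25 (SE 0.17), PLPP3, a lipid phosphatase, of 1.49 (SE 0.31) and INSC, a spindle orientation adaptor, of 1.38 (SE 0.24). Adjusted p values (edgeR) for the difference for the 7 genes were 6.13e-05 to 0.0288. The call of ADAMTS1 was lost without vector EtOH replicate 1 or 3 (edgeR adjusted p up to 0.0746), and that of PLPP3 without vector EtOH replicate 1, vector Dox replicate 3 or JUN EtOH replicate 2 or 3 (up to 0.109).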

How the data were processed

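RNA was sequenced from 12 libraries of MCF10A cells in 4 groups of 3. The deposited table holds raw read counts per Entrez gene, which the authors made from single-end reads trimmed with cutadapt 4.2, aligned with Bowtie2 to hg19 and counted with countOverlaps of GenomicRanges. The annotation and the use of strand are not given in the sources used here, so genes with shared exons cannot be separated. Symbols and positions came from GENCODE on GRCh37 (99.4% of IDs had a symbol), promoters from RefSeq on GRCh38.p14.

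Genes were filtered with filterByExpr (minimum count 10, total 15), scaled by TMM and tested with the quasi-likelihood test of edgeR 4.0.16 in R 4.3.3, in 1 fit over the 4 groups, at a Benjamini-Hochberg adjusted p under 0.05. The common coefficient of variation was 12.5%. Total counts were 18594867 to 28993487, and floors and intervals cover counting error only. On simulated data of 14611 genes the test recovered 91% of log2 changes of 1 and 100% of 2. The changed genes there had a mean of at least 1 CPM, as many up as down, and no other gene changed. Recovery at lower levels or with broad changes was not simulated. Alternatives were DESeq2 1.42.0, other scaling and filters, a GC correction, a replicate block, the 6 libraries alone and leaving out each library.

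Named genes were JUN and YAP1, the 12 highest and 12 lowest called genes with at least 5 CPM and no overlap, the 6 largest rises and falls in CPM, the 6 highest and lowest differences of effects, up to 6 with opposite direction, and up to 4 called members of each list with at least 1 CPM. Other list members, BDNF and MAP2 were named after their values were seen. Some named genes are not reported here. The groups, lists and tests were chosen with earlier results of these data known.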

Additional observations from a re-analysis of the deposited data

Results flagged for a closer look

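The difference of effects, the log2 fold change of JUN over vector with induction minus that without it, passed the edgeR test (adjusted over 14775 genes) for these genes among those named. The lowest values were OLR1 -4.79, INHBA-AS1 -3.86, INHBA -3.64, NLRP3 -3.30, IL7R -2.98, NDRG1 -2.70, GJA5 -2.61, PTX3 -2.28 and WNT5A -2.09. Further below 0 were JUN -2.03, IGFBP3 -1.97, CGN -1.90, NUAK2 -1.84, THBS1 -1.75, VLDLR -1.73, SERTAD4 -1.62, F3 -1.55, LIF -1.51 and EFNA1 -1.50. The smallest differences below 0 were CCDC80 -1.48, NRG1 -1.35, TPM1 -1.20, CDH1 -1.03, CCND1 -0.99, ICAM1 -0.99, GCLC -0.75, FOXF2 -0.72 and MAFK -0.57. Above 0 were IL6 2.63, ATOH8 2.58, EHF 2.38, ADAMTS1 1.72, PLPP3 1.49, INSC 1.38, NRP1 1.25, PLAT 1.07, BCL3 0.97 and LTBP1 0.84. Each group held 3 libraries, too few for a test of single libraries that stand apart. The calls of LIF, MAFK, VLDLR, GCLC, PLPP3, IGFBP3, ADAMTS1, NRG1, LTBP1, BCL3, IL6 and ICAM1 were lost when single libraries were left out. LIF lost its call in 13 of 20 alternatives, MAFK in 11 of 20 and VLDLR in 9 of 19, and for LIF and MAFK these include the fit with no filter on low counts. NLRP3, OLR1 and INHBA-AS1 had libraries near or under the level of 3 counts or shared reads with another gene, as given above. No cause of these differences was tested.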

How the results depend on the processing

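Between JUN Dox and vector Dox 5267 genes were called, and 4453 to 5856 with DESeq2, other scaling factors, other filters on low counts, a replicate block or a GC correction. The fit to the 6 libraries alone called 3439, 1471 of them lower. Leaving out 1 library gave 4025 (without JUN Dox replicate 2) to 5539. Between JUN EtOH and vector EtOH this range was 3823 (without JUN EtOH replicate 1) to 6765, and 1742 to 3342 for lower genes. The fit to the 6 EtOH libraries alone called 7282. For the difference of effects 165 genes were called, against 340 with DESeq2 (108 above and 232 below 0) and 66 above 0 with the replicate block and GC correction. Leaving out 1 library gave as few as 97 genes (vector EtOH replicate 3 left out) and as many as 242 (vector Dox replicate 1 left out), 21 to 76 above and 71 to 184 below 0. With the upstream bases alone the AP-1 motif was in 4.24% of all promoters, TGACGTCA in 2.77%, and the TEAD motif in 9.38% of all and 9.18% of those called lower. Values that changed sign belonged to genes that had not passed. Without single libraries IGFBP3 ranged from -0.24 to 0.28, KRT5 from -0.20 to 0.10 (0.02 without vector Dox replicate 2) and COL1A1 from -0.22 to 0.015. The cause was not tested. Over all alternatives 5095 values of named genes kept their direction and their side of the threshold, 189 lost and 10 gained a call, and 4 changed sign. With a mean of at least 5 CPM required, fewer list members were tested, and the number lower was 2 integrins and laminins, 1 mesenchymal gene, 4 TGF-beta, 3 Notch, 3 ephrin and 2 MAPK feedback genes, with 4 squamous and 5 prostaglandin and retinoid genes higher and no called corepressor or ADAM protease lower or BCL2 family gene higher.

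Whether the replicate numbers pair the libraries could not be settled. Deviations from the group means correlated at -0.26 to 0.47 between libraries of the same number and at -0.47 to 0.31 between others. JUN EtOH and JUN Dox of the same number were at 0.28, 0.01 and 0.47 for replicates 1, 2 and 3. Vector EtOH and vector Dox were at -0.23, -0.26 and 0.11. Deviations within a group of 3 depend on each other, so overlapping ranges do not exclude pairing. With the number as a replicate block 5329 genes were called between JUN Dox and vector Dox, 5871 between JUN EtOH and vector EtOH, and 197 for the difference.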
